A study of Mus musculus with 14 samples.

Results

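The comparison asked where the effect of Cdk9-DN on reprogramming cells at day 10 differed from its effect at day 5. It was computed for each gene as the log2 difference between Cdk9-DN and control cells at day 10, minus the same difference at day 5, and is called the difference of effects. A negative value means that Cdk9-DN lowered the gene more, or raised it less, at day 10 than at day 5. All genes listed in at least 1 library of each of the 4 groups were eligible, which were 23014 of the 26962 genes listed in any library of the series. Of these, 5485 passed the filter on low values and could be fitted, and 3780 of them were listed in all 8 libraries.

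The 4 groups were mouse embryonic fibroblasts of strain OG2/129SV transduced with Oct4, Sox2, Klf4 and c-Myc and grown in embryonic stem cell medium with serum and LIF. They were Cdk9-DN cells at day 10, control-vector cells at day 10, Cdk9-DN cells at day 5 and control-vector cells at day 5 after infection, with 2 libraries each. By its name, Cdk9-DN is a dominant-negative Cdk9; how much kinase activity was left was not measured here, and the tables held no value for Cdk9 itself. The labels do not call the replicates separate cultures, so each p-value below reflects the spread between libraries, which may be technical. The whole population was sequenced, so fewer cells of a type and less RNA per cell cannot be told apart.

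Cdk9 and a cyclin T form P-TEFb, the kinase that phosphorylates paused RNA polymerase II and its pausing factors and so lets transcription proceed into the gene body. Hexim1, Larp7 and the 7SK RNA hold P-TEFb in an inactive store. Genes that respond quickly to signals, such as immediate early genes, are textbook cases of control by pause release. Fibroblasts that become pluripotent first lose mesenchymal genes and gain epithelial genes, and later switch on their own pluripotency network.

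Implied depth was 8.79 to 12.95 M (mega) fragments in the 8 libraries. The 10 genes with the highest values took 40.4 to 76.1% of the summed FPKM, and the highest share was that of control day 5 replicate 2. Replicates of the same group differed by a median of 0.116 to 0.167 on the log2 scale. Of the fibroblast markers, Thy1, Dcn and Pdgfra could be tested, while collagen I and III genes, Vim and Fn1 had no listed value. Of the delivered factors, Pou5f1 and Klf4 had no listed value, and Sox2 and Myc were listed in 3 and 4 of the 8 libraries and were not tested.

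The effect of Cdk9-DN at day 10 differed from that at day 5 in 862 of 5485 genes, 15.7% of those tested (adjusted p under 0.05, limma). In 464 genes (8.46%) the difference was called positive and in 398 genes (7.26%) negative. The median over all genes tested was 0.02, and 318 of the genes called had a difference larger than 1 in size, of which 135 were positive and 183 negative. Among genes called, the median was 0.76 for positive and -0.95 for negative differences. Of the 862 genes called, 541 (62.8%) were listed in all 8 libraries. Protein-coding genes were called in 578 of 2384 cases (24.2%) and processed pseudogenes, whose reads can be shared with their parent genes, in 169 of 1424 (11.9%). Leaving out 1 library lowered the count to 528 and 461 (Cdk9-DN day 10 replicates 1 and 2), 501 and 631 (control day 10 replicates 1 and 2), 497 in both cases (Cdk9-DN day 5 replicates 1 and 2), and 554 and 525 (control day 5 replicates 1 and 2). None of the genes called changed sign in any of these fits that tested them.

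The difference arose mostly at day 10. The single-day effect was larger in size at day 10 than at day 5 in 829 of the 862 genes (96.2%). It was called at day 10 in 826 of them (95.8%) and at day 5 in 8. Over all genes tested the Cdk9-DN effect was called in 1560 genes at day 10 and in 9 at day 5. Called effects of opposite sign on the 2 days were found in 0 genes (limma). Only 1 of the 862 genes had an effect called on both days, so this count cannot show whether reversals were absent. At unadjusted p under 0.05 on both days, 133 of the genes called had opposite signs. The sign itself was opposite in 600 of the 862 genes (69.6%), mostly with a small value at day 5: genes called negative had a median effect of -0.89 at day 10 and 0.03 at day 5, and those called positive 0.64 and -0.10. A call requires the 2 effects to differ, which by itself favours opposite signs. The share over all genes tested was not computed, so these counts give no evidence of reversal.

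Set out as courses, the genes called were largely those that moved between the 2 days in control cells and moved less with Cdk9-DN. Genes called negative had a median log2 change from day 5 to day 10 of 0.36 in Cdk9-DN cells and 1.24 in control cells. Genes called positive had median changes of -0.07 in Cdk9-DN cells and -0.80 in control cells. A called rise in control cells was present in 356 of 398 genes called negative (89.4%) and in 1501 of all 5485 genes (27.4%). A called fall in control cells was present in 380 of 464 genes called positive (81.9%) and in 1218 of all genes (22.2%). These changes and the difference share the same control libraries, so they describe the genes and give no independent evidence.

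**Figure D1:**
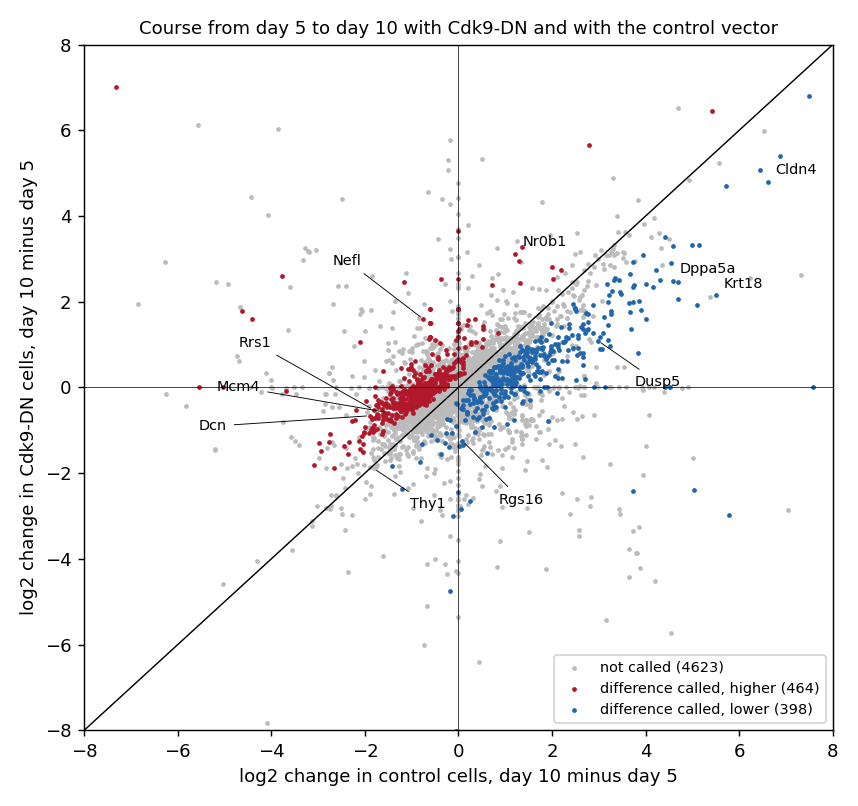
Log2 change in FPKM + 1 from day 5 to day 10 in Cdk9-DN cells (vertical) against control cells (horizontal), 1 point per gene; the diagonal marks equal change and 7 genes lie outside the axes. Genes called higher (464) lie above the diagonal and mainly left of 0, and genes called lower (398) lie below it and mainly right of 0.

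The genes fell into 9 kinds of course, set by which of the 2 changes was called. In 226 genes both changes were rises, and in 209 of these the rise was smaller with Cdk9-DN, with medians over the 226 of 0.91 in Cdk9-DN cells and 1.78 in control cells. In 207 genes the level fell in control cells and had no called change in Cdk9-DN cells (medians -0.05 and -0.78). In 151 genes it fell with both vectors, less with Cdk9-DN in 143 of them, and in 121 genes it rose in control cells with no called change in Cdk9-DN cells. The other genes went the other way or moved with Cdk9-DN alone: 64 rose and 32 fell in Cdk9-DN cells with no called change in control cells, 30 rose in Cdk9-DN and fell in control cells, and 26 fell in Cdk9-DN and rose in control cells. The remaining 5 genes had neither change called.

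**Figure D2:**
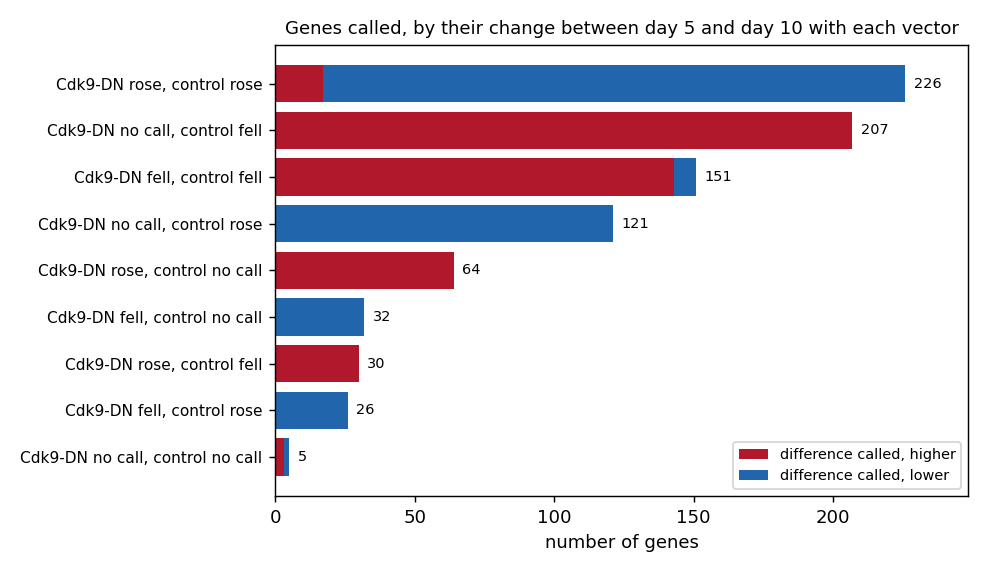
Number of genes called for the difference of effects in each kind of course from day 5 to day 10 (bars, horizontal axis), with red for positive and blue for negative differences. The largest kind, 226 genes that rose with both vectors, holds 209 negative differences, and the kinds with a fall in control cells hold mainly positive ones.

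Promoters of 4 genes are shown, chosen because Krt18 had the most negative difference among the named genes with values above 0 in all 8 libraries, Dusp5 and Gadd45b stand for the signal-response genes called negative, and Nr0b1 is the 1 pluripotency gene called positive. The sequences are RefSeq's on GRCm38.p6, 5′ to 3′ on the gene's strand, from 250 bases before to 50 bases after the gene start. Capitals mark matches to the TATA box TATAAA, the AP-1 site TGACTCA, the E-box CACGTG (each on both strands) or the CArG box, the serum response element core. They lie at chr15:102027966-102028265 (+) for Krt18, chr19:53528895-53529194 (+) for Dusp5, chr10:80929841-80930140 (+) for Gadd45b and chrX:86191525-86191824 (+) for Nr0b1.
Krt18: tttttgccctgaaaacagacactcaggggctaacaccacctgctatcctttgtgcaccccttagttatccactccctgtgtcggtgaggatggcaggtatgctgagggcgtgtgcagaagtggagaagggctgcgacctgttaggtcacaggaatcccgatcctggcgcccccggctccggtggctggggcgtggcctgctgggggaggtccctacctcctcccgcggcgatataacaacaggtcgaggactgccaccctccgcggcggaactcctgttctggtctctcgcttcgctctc
Dusp5: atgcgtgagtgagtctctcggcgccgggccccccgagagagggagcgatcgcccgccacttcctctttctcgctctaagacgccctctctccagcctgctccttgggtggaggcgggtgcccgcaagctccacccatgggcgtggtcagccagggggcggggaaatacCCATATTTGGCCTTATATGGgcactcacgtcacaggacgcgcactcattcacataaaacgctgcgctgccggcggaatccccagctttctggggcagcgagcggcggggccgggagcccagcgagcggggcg
Gadd45b: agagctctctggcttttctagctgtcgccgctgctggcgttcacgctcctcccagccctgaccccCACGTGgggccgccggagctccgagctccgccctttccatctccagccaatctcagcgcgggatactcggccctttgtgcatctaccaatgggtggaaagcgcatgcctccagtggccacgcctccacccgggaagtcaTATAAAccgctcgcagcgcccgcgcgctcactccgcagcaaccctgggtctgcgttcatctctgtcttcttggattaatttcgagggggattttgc
Nr0b1: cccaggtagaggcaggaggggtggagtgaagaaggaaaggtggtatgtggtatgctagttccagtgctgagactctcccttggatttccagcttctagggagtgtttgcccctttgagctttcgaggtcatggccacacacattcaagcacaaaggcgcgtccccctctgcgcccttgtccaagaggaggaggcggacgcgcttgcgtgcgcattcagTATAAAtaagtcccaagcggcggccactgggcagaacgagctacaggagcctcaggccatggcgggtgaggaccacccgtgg
Dusp5 held 2 abutting CArG boxes, starting at -82 and -72 from the gene start. Gadd45b held an E-box at -185 and a TATA box at -46, and Nr0b1 a TATA box at -32. The Krt18 window held none of the 4. Of all 32851 promoters in the table, 1.63% held a CArG box, 13.6% TATAAA, 7.15% CACGTG and 5.20% TGACTCA. Of the 237 promoters of the 209 matched genes called negative, 5 (2.11%) held a CArG box, 17 (7.17%) TGACTCA, 20 (8.44%) TATAAA and 20 (8.44%) CACGTG. Of the 215 promoters of the 193 matched genes called positive, 1 (0.465%) held a CArG box, 6 (2.79%) TGACTCA, 22 (10.2%) TATAAA and 19 (8.84%) CACGTG. Of the 1830 promoters of genes tested, 0.820% held a CArG box, 5.30% TGACTCA, 9.67% TATAAA and 7.76% CACGTG. No CArG box was found in the 9 matched promoters of called immediate early genes or the 2 of called TGF-beta response genes. These shares were not tested against each other. A match is a description of the letters and no evidence of binding.

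Epithelial genes had the most negative differences of the lists examined with at least 5 genes tested. Of 45 genes on the list, 26 were listed in some library and 13 were tested. In 11 of the 13 the difference was called negative and in 0 positive, with a list median of -1.74 beside 0.02 over all genes. The share called was 84.6%, beside 15.7% over all genes and 24.2% over protein-coding genes. Members that stayed low in all groups were not tested, and Prss8 passed the filter only through control day 10, as set out below. Krt18, a keratin of simple epithelia (chr15:101858647-101862457, mm9), had 7.10 and 6.31 FPKM in Cdk9-DN cells at day 10 against 86.6 and 83.8 FPKM in control cells at day 10. At day 5 it had 0.574 and 0.883 FPKM in Cdk9-DN cells against 0.853 and 0.921 FPKM in control cells. The groups were thus apart at day 10, with all 4 libraries of day 5 under 1 FPKM, and the difference was -3.35 ± 0.19 (SE, adjusted p = 1.11e-04, limma).

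The claudins, which seal tight junctions between epithelial cells, followed the same course. Cldn9 had 2.38 and 2.49 FPKM in Cdk9-DN cells against 16.9 and 17.3 FPKM in control cells at day 10, and 0.0814 to 0.178 FPKM in the 4 libraries of day 5. Its difference was -2.40 (adjusted p = 1.21e-04, limma), and its neighbour Cldn6 had -2.62 (adjusted p = 1.95e-04, limma) with 3.58 and 3.03 FPKM in Cdk9-DN cells and 24.8 FPKM in the 1 control library of day 10 that listed it. Cldn4 reached 29.0 and 27.3 FPKM in Cdk9-DN cells and 102 and 98.0 FPKM in control cells at day 10, starting from at most 0.0878 FPKM at day 5, with a difference of -1.81. Cldn3 had -1.74, and the tight junction protein gene Marveld3 -1.49. All 5 were induced with both vectors by value, to a lower level with Cdk9-DN.

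Prss8, an epithelial membrane protease, was listed at 0 in the 1 Cdk9-DN library of day 10 that listed it and in all 4 libraries of day 5, against 21.8 and 21.9 FPKM in control cells at day 10. It was called negative, and no size is given because its only Cdk9-DN value at day 10 is 0. Atp1b1, the beta subunit of the sodium pump, had 2.16 and 2.59 FPKM in Cdk9-DN cells against 16.8 and 17.5 FPKM in control cells at day 10, and a difference of -3.04 (adjusted p = 0.00369, limma). At day 5 Atp1b1 had 0.928 FPKM in the listed Cdk9-DN library against 0.592 and 0 FPKM in control cells. With a pseudocount of 0.1 its call was lost (adjusted p = 0.0620, limma). Krt8, the usual filament partner of Krt18, was not called: it had 97.9 and 98.2 FPKM in Cdk9-DN cells against 189 FPKM in the listed control library of day 10, and 11.0 and 11.3 FPKM against 15.6 and 15.5 FPKM at day 5. Its difference was -0.50 (adjusted p = 0.0729, limma), and it passed the threshold when only the 8 libraries of days 5 and 10 or only protein-coding genes were fitted.

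Gcnt3, Spink3 and Lypd5, which were not on that list, were among the 12 most negative by rank. Gcnt3, a glycosyltransferase of mucin synthesis, had 1.41 and 1.76 FPKM in Cdk9-DN cells against 11.8 and 12.7 FPKM in control cells at day 10, and at most 0.0244 FPKM at day 5 (difference -2.34, adjusted p = 7.42e-05, limma). The trypsin inhibitor gene Spink3 had 0 and 0.312 FPKM in Cdk9-DN cells against 6.39 and 4.74 FPKM in control cells at day 10 and was listed at 0 at day 5 (difference -2.51). Lypd5, listed at 0 at day 5, had -1.85, with 0.666 and 0.838 FPKM in Cdk9-DN cells against 5.61 and 5.05 FPKM in control cells at day 10. Of the keratinocyte and trophoblast list, 3 of 5 genes tested were called negative (median -0.49): Sfn, the epithelial 14-3-3 protein, with -0.86, Krt4 with -0.77, whose call was lost with a pseudocount of 0.1 (adjusted p = 0.0748, limma), and Perp, a desmosome component, with -0.49. Krt5 (0.16) and Ly6d (-0.08) were not called. The 3 calls are 60% of the genes tested on this list, beside 15.7% over all genes and 24.2% over protein-coding genes. They include Krt4, which passed the filter only through control day 10, as set out below.

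A low level at day 5 limits what these values can show. Both day 5 group means were under 1 FPKM in 148 of the 398 genes called negative (37.2%), in 33 of 464 called positive (7.11%) and in 701 of 5485 tested (12.8%). On the scale used, the day 5 effect of such a gene stays under 1 in size whatever its ratio, so its part in the difference is limited. It need not be close to 0: Atp1b1 had an effect of 0.61 at day 5 and of -2.43 at day 10. Prss8, Spink3, Lypd5, Krt4, Pcsk1 and Cldn5 reached 1 FPKM only in the control libraries of day 10 and passed the filter through them. A negative difference of such genes follows from the filter, so their calls do not bear on the direction of a list.

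Signal-response genes formed the other large group with negative differences, and most of these were well above 1 FPKM at day 5. In the TGF-beta and YAP response list, 7 of 8 genes tested were called negative and 0 positive, with a median of -1.21 beside 0.02 over all genes. Called genes made up 87.5% of those tested, beside 15.7% over all genes and 24.2% over protein-coding genes. The list's median effect was -0.93 at day 10 and 0.26 at day 5. Id2, an inhibitor of basic helix-loop-helix factors, had 30.7 and 29.6 FPKM in Cdk9-DN cells against 56.2 and 57.1 FPKM in control cells at day 10, and 25.3 and 24.5 FPKM against 21.1 and 18.2 FPKM at day 5. Cdk9-DN cells were thus the lower group at day 10 and the higher one at day 5, without overlap on either day. The day 5 effect was not called (adjusted p = 0.216, limma), so a reversal is not shown. For Id2 the difference was -1.22 ± 0.09 (SE, adjusted p = 3.65e-04, limma).

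Cyr61, a matricellular protein and YAP target, had 70.9 and 67.6 FPKM in Cdk9-DN cells against 221 FPKM in the listed control library at day 10, and 126 FPKM in the listed Cdk9-DN library against 107 and 106 FPKM in control cells at day 5. Its level fell with Cdk9-DN and rose in control cells between the days, and the difference was -1.90 (adjusted p = 0.00100, limma). Ankrd1 had -1.67, Ctgf -1.20 and Id1 -1.18. Tgfb3, the ligand gene, had -1.01, and its call was lost without Cdk9-DN day 10 replicate 2 or Cdk9-DN day 5 replicate 2 (adjusted p = 0.0526 and 0.0512, limma). Tgfbi was not called (0.36). Where a group has only 1 listed library, as for Cyr61, the test borrows its spread from the remaining groups.

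Of 22 immediate early and stress-induced genes tested, 11 were called negative and 1 positive, with a median of -0.59. That is 54.5% called, beside 15.7% over all genes and 24.2% over protein-coding genes. Gadd45b, a stress-induced regulator of growth arrest, had 37.4 FPKM in the listed Cdk9-DN library against 134 and 135 FPKM in control cells at day 10, and 20.9 and 23.9 FPKM against 21.8 and 19.0 FPKM at day 5 (difference -1.95 ± 0.14 SE, adjusted p = 6.59e-04, limma). Bhlhe40, a repressor of the clock and hypoxia responses, had -1.47, Plaur, the urokinase receptor, -1.40, and Ier3 -1.37. Among the AP-1 subunits Fosl2 had -1.21, Junb -0.73, Jun -0.58 and Jund -0.51, while Fosl1 (-0.10) and Fosb (-0.19) were not called. These AP-1 calls were not followed gene by gene in the fits without 1 library. Egr1 was the 1 member called positive: it had 17.7 and 18.5 FPKM in Cdk9-DN cells against 12.4 and 13.1 FPKM in control cells at day 10, and 20.6 FPKM in the listed Cdk9-DN library against 23.1 and 24.1 FPKM in control cells at day 5 (0.66, adjusted p = 0.00684, limma). The calls in the list therefore did not share 1 direction.

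Feedback inhibitors of MAP kinase signalling gave 3 negative and 1 positive call among 8 genes tested (median -0.49), 50% beside 15.7% over all genes and 24.2% over protein-coding genes. Of these only Dusp5 and Dusp9 kept their calls in every fit without 1 library. Spry2, the positive one (0.42), lost its call in all 7 such fits. Errfi1 (-0.74) lost its call in each but that without control day 10 replicate 2, which did not list it. Dusp5, a nuclear phosphatase of ERK (chr19:53603599-53616921, mm9), had 8.03 and 7.41 FPKM in Cdk9-DN cells against 32.4 and 34.6 FPKM in control cells at day 10, and 2.95 and 3.26 FPKM against 3.63 and 3.09 FPKM at day 5. The vectors overlapped at day 5 and lay far apart at day 10, with a difference of -1.90 ± 0.15 (SE, adjusted p = 4.66e-04, limma). Dusp9, another ERK phosphatase, had -1.82, and Dusp6 (0.03) was not called.

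Of 8 p53 target genes tested, 4 were called negative and 1 positive (median -0.49). The negative calls include Btg2, also counted in the immediate early list, and Perp, also counted in the keratinocyte and trophoblast list. The share called was 62.5%, beside 15.7% over all genes and 24.2% over protein-coding genes. Gdf15, a secreted stress cytokine, had 1.83 and 1.39 FPKM in Cdk9-DN cells against 6.51 and 5.85 FPKM in control cells at day 10, and 3.50 and 3.35 FPKM against 2.05 and 2.21 FPKM at day 5. Cdk9-DN cells were lower at day 10 and higher at day 5 without overlap, but the day 5 effect was not called (adjusted p = 0.329, limma). For Gdf15 the difference was -1.96 ± 0.16 (SE, adjusted p = 0.00221, limma). Sesn2, a stress-induced inhibitor of mTORC1 signalling, went the other way (0.63). Of 4 cell cycle brakes tested, Cdkn1b (p27, -0.79), Cdkn2b (p15, -0.77) and Btg1 (-0.66) were called negative, 75% beside the same 15.7% and 24.2%. These calls were fragile: Btg1 lost its call without any 1 of the 8 libraries (adjusted p 0.0674 to 0.0962, limma), Cdkn2b without Cdk9-DN day 10 replicate 1, control day 10 replicate 1 or control day 5 replicate 2 (highest adjusted p = 0.0556, limma), and Cdkn1b without Cdk9-DN day 10 replicate 1 (adjusted p = 0.0504, limma). Of 12 heat shock and unfolded protein genes, 3 were called negative and 1 positive (median -0.10), 33.3% beside the same 15.7% and 24.2%. The small heat shock protein gene Hspb8 had -0.93, and its call was kept in all 8 fits without 1 library. Hspa1b (-0.98) lost its call in all 5 such fits, and Hspa1a (-0.94) without either Cdk9-DN day 5 library. Stip1 (0.40) lost its call in each but that without control day 10 replicate 2, which did not list it.

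**Figure D3:**
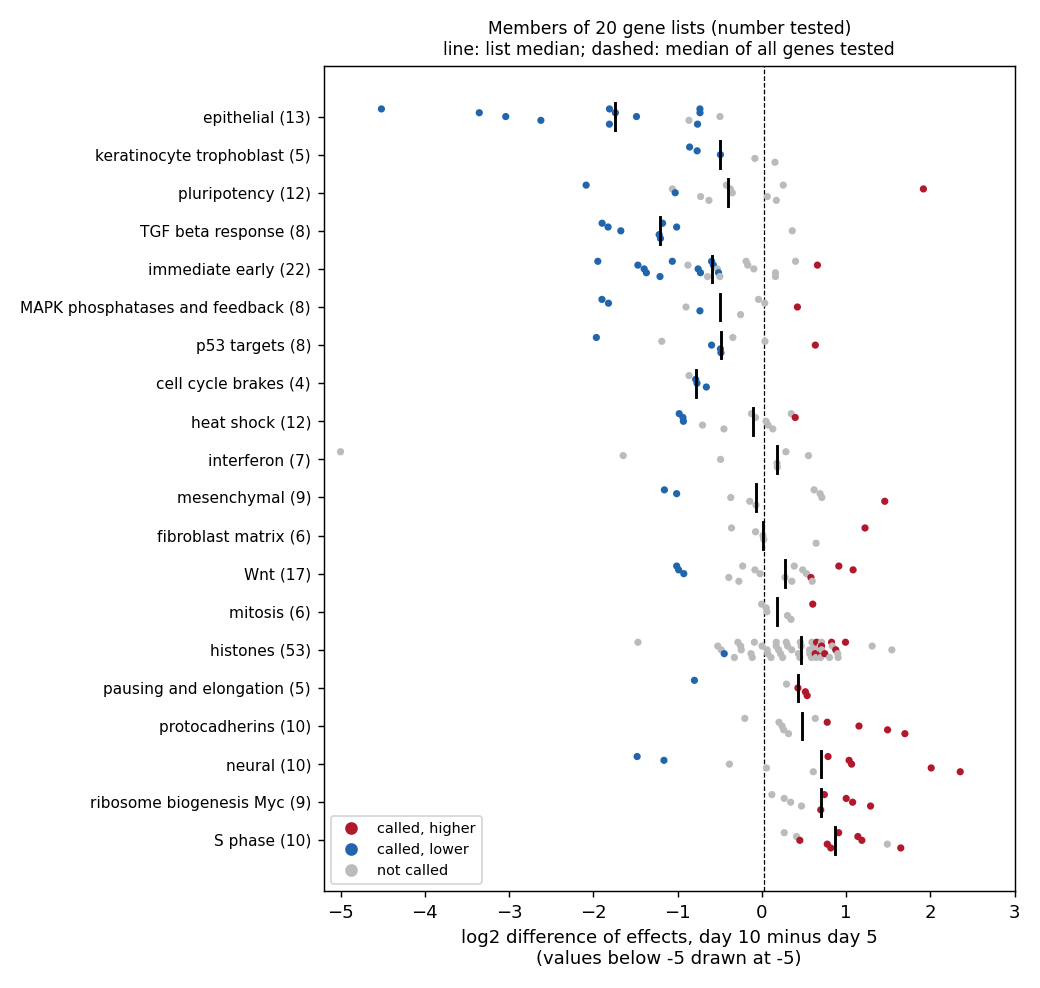
Difference of effects, in log2 units on the horizontal axis, for each tested member (point) of 20 gene lists (rows, number tested in brackets), with the list median as a line and the median of all genes tested dashed. The epithelial and TGF-beta lists lie left of 0 apart from Tgfbi, with medians of -1.74 and -1.21, and the S phase and ribosome biogenesis lists lie right of 0, with medians of 0.86 and 0.70; 1 interferon gene, Ifitm1 at -6.86, was not called and is drawn at the edge.

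Of 42 pluripotency genes, 12 were tested, 2 were called negative and 1 positive, and the median was -0.40. The share called was 25%, beside 15.7% over all genes and 24.2% over protein-coding genes. Dppa5a, an embryonic stem cell RNA-binding protein, had 4.78 and 5.06 FPKM in Cdk9-DN cells against 26.8 and 21.4 FPKM in control cells at day 10, and at most 0.103 FPKM at day 5 (difference -2.09 ± 0.16 SE, adjusted p = 4.17e-04, limma). Utf1, a chromatin factor of the inner cell mass, had 5.14 and 5.92 FPKM in Cdk9-DN cells against 12.9 and 10.7 FPKM in control cells at day 10 (difference -1.03). With a pseudocount of 0.1 this call of Utf1 was lost. Its call was lost without any 1 library other than control day 10 replicate 2 (adjusted p 0.0532 to 0.0804, limma).

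Nr0b1, which encodes the nuclear receptor Dax1 of the pluripotency network (chrX:83437103-83441286, mm9), had the opposite sign. It had 10.4 and 11.4 FPKM in Cdk9-DN cells against 4.29 and 3.91 FPKM in control cells at day 10, and 0.374 and 0.351 FPKM against 1.36 and 1.06 FPKM at day 5. Cdk9-DN cells were the higher group at day 10 and the lower one at day 5, but the day 5 effect was not called (adjusted p = 0.0568, limma). For Nr0b1 the difference was 1.92 ± 0.13 (SE, adjusted p = 2.07e-04, limma). Nanog, the core pluripotency factor, was listed at 6.24 FPKM in 1 Cdk9-DN library and at 11.5 FPKM in 1 control library at day 10, and its difference of -0.63 was not called (adjusted p = 0.198, limma). The reprogramming marker genes Zfp42 (-0.38) and Tdgf1 (-0.35) were not called either.

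Genes of DNA replication had positive differences. Of 10 S phase genes tested, 7 were called positive and 0 negative, with a median of 0.86 beside 0.02 over all genes. The share called was 70%, beside 15.7% over all genes and 24.2% over protein-coding genes. Mcm4, a subunit of the replicative helicase, had 29.0 and 28.2 FPKM in Cdk9-DN cells against 15.3 and 15.7 FPKM in control cells at day 10, and 45.2 and 41.8 FPKM against 44.9 and 46.2 FPKM at day 5. Its level fell with both vectors, less with Cdk9-DN, and the difference was 0.91 ± 0.07 (SE, adjusted p = 0.00105, limma). Mcm2 and Mcm3 of the same helicase had 1.19 and 1.14. Mcm2 had 1 listed library in each day 5 group, and Mcm3 had 1 in Cdk9-DN day 10 and 1 in control day 5. Lrr1, a substrate receptor of the ubiquitin ligase that unloads the helicase, had 19.0 and 18.5 FPKM in Cdk9-DN cells against 6.73 and 5.08 FPKM in control cells at day 10, and a difference of 1.65 (adjusted p = 0.0100, limma).

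Beside 15.7% over all genes and 24.2% over protein-coding genes, mitosis genes gave 1 call among 6 tested (16.7%, median 0.18). It was Birc5 (survivin), with 0.60, and it was lost without either Cdk9-DN day 10 library, Cdk9-DN day 5 replicate 2 or either control day 5 library (highest adjusted p = 0.122, limma). Plk1 (0.30), Kif20a (0.06) and Ube2c (-0.00) were not called. Whether replication and mitosis genes differed from each other was not tested.

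Ribosome biogenesis genes, many of them Myc targets, were called positive in 5 of 9 genes tested and negative in 0. Their median was 0.70, with all 9 values above 0. That is 55.6% called, beside 15.7% over all genes and 24.2% over protein-coding genes. Rrs1, a ribosome assembly factor (chr1:9535489-9537535, mm9), had 44.3 and 45.2 FPKM in Cdk9-DN cells against 18.8 and 19.8 FPKM in control cells at day 10, and 64.7 and 64.8 FPKM against 71.2 and 69.4 FPKM at day 5. It fell with both vectors, less with Cdk9-DN, and the difference was 1.29 ± 0.06 (SE, adjusted p = 4.59e-05, limma). The nucleolar RNA helicase gene Ddx21 had 1.08, with 1 listed Cdk9-DN library at day 10, and the biogenesis factor gene Nip7 0.74. Cytosolic ribosomal protein genes gave 1 call among 9 tested (11.1%, median -0.22) and oxidative phosphorylation genes 2 among 29 (6.9%, median 0.07). Mitochondrial ribosomal protein genes gave 5 among 20 (25%, median 0.12), near the 24.2% over protein-coding genes. Of 53 histone genes tested, 8 were called positive and 1 negative (17% called, median 0.47), with reads that near-identical copies can share. The 17% is near the 15.7% over all genes and under the 24.2% over protein-coding genes.

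**Figure D4:**
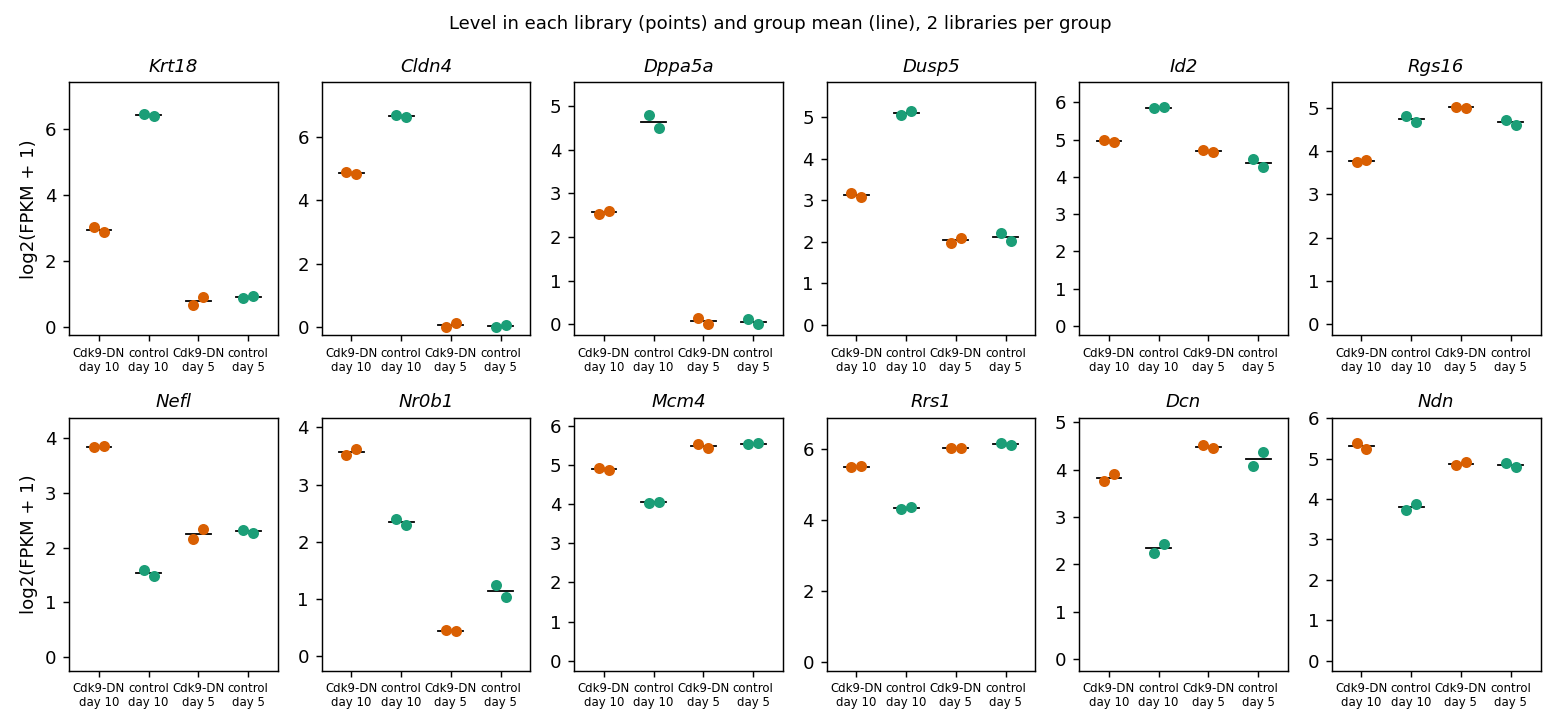
Level of 12 genes as log2(FPKM + 1) (vertical axis) in each library (points, 2 per group) with the group mean (line), for Cdk9-DN cells (orange) and control cells (green) at day 10 and day 5. In the 12 genes the 2 vectors lie apart at day 10. At day 5 they lie apart in Nr0b1, Id2, Rgs16 and by a smaller distance in Rrs1 and Dcn, and none of these day 5 effects was called.

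Of 39 neural and neuroendocrine genes on the list, 26 were listed in all 4 groups and 10 were tested. Of these 10, 5 were called positive and 2 negative (median 0.70). Pcsk1, called negative, passed the filter only through control day 10, as set out above. Called genes were 70% of those tested, beside 15.7% over all genes and 24.2% over protein-coding genes. Nefl and Insm1 were the most positive of the genes named by rank, which leave out small RNAs, pseudogenes and unnamed models. Nefl, the neurofilament light chain (chr14:68701920-68707152, mm9), had 13.3 and 13.5 FPKM in Cdk9-DN cells against 2.02 and 1.8 FPKM in control cells at day 10, and 3.46 and 4.08 FPKM against 3.98 and 3.84 FPKM at day 5. It rose with Cdk9-DN and fell in control cells, and the difference was 2.35 ± 0.11 (SE, adjusted p = 4.59e-05, limma). Insm1, a zinc finger factor of neuroendocrine cells, had 5.12 and 5.54 FPKM in Cdk9-DN cells against 0.865 and 1.02 FPKM in control cells at day 10, and 3.62 and 4.00 FPKM against 4.19 and 5.80 FPKM at day 5 (difference 2.01, adjusted p = 0.00112, limma). It fell in control cells with no called change in Cdk9-DN cells.

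Trh, the precursor of thyrotropin-releasing hormone, had 1.03, Gap43, a growth cone protein, 1.06, and Neurog2, a neurogenic transcription factor, 0.79, the last at no more than 1.69 FPKM. The 2 negative calls were peptide genes that rose with both vectors: Npy, neuropeptide Y, had 53.2 and 51.1 FPKM in Cdk9-DN cells against 134 and 123 FPKM in control cells at day 10 (difference -1.48), and Pcsk1, the prohormone convertase, had -1.16. The call of Npy was lost without either Cdk9-DN day 10 library, control day 10 replicate 1 or control day 5 replicate 2 (adjusted p 0.0565 to 0.0664, limma), and with a pseudocount of 0.1 both were lost (adjusted p = 0.420 for Npy and 0.0676 for Pcsk1, limma). Ndn (necdin), an imprinted growth suppressor of neurons and fibroblasts, had 40.7 and 37.0 FPKM in Cdk9-DN cells against 12.2 and 13.6 FPKM in control cells at day 10, and 27.8 and 28.9 FPKM against 28.6 and 26.6 FPKM at day 5 (difference 1.48, adjusted p = 2.06e-04, limma).

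Of 6 fibroblast matrix genes tested, 1 was called, Dcn (median 0.02). The share of 16.7% is near the 15.7% over all genes and under the 24.2% over protein-coding genes. Dcn, the matrix proteoglycan decorin, had 12.5 and 14 FPKM in Cdk9-DN cells against 3.73 and 4.42 FPKM in control cells at day 10, and 21.9 and 21.0 FPKM against 15.8 and 19.8 FPKM at day 5. It fell with both vectors, less with Cdk9-DN, with a difference of 1.22 ± 0.16 (SE, adjusted p = 0.00372, limma). Thy1, the surface antigen used to mark fibroblasts, had 18.0 and 16.8 FPKM in Cdk9-DN cells against 16.3 FPKM in the listed control library at day 10, and 65.8 and 68.6 FPKM against 60.5 and 59.5 FPKM at day 5. Its log2 change between the days was -1.89 in Cdk9-DN cells and -1.81 in control cells, and the difference of -0.08 was not called (adjusted p = 0.580, limma). Pdgfra (0.02), Timp3 (0.01) and Mmp2 (-0.36) were not called.

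Of 9 other mesenchymal genes tested, 1 was called positive and 2 negative (median -0.07), 33.3% beside 15.7% over all genes and 24.2% over protein-coding genes. Meox2, a mesodermal homeobox factor, had 1.46 and the smooth muscle gene Cnn1 (calponin) -1.16; the third was Tgfb3, given above. The transcription factors Snai1 (-0.37), Snai2 (-0.14) and Twist1 (0.69) were not called. Protocadherins, a family of cell adhesion genes, gave 4 positive and 0 negative calls among 10 tested (median 0.47), 40% beside the same 15.7% and 24.2%. They were led by Pcdh10 with 1.70 and Pcdh7 with 1.49. Pcdh10 had 5.67 and 5.75 FPKM in Cdk9-DN cells against 0.678 and 1.20 FPKM in control cells at day 10, and fell with both vectors. The Wnt list gave 3 positive calls (Sfrp4 1.08, Dkk2 0.91, Gpc4 0.58) and 3 negative ones (Wnt4 -1.01, Wnt7a -0.99, Wnt9a -0.93) among 17 tested. The share called was 35.3%, beside 15.7% over all genes and 24.2% over protein-coding genes. The call of Sfrp4 was lost without Cdk9-DN day 5 replicate 1 or control day 5 replicate 1 (adjusted p = 0.0526 and 0.0506, limma), and that of Wnt7a without Cdk9-DN day 10 replicate 2, Cdk9-DN day 5 replicate 1 or control day 5 replicate 1 (highest adjusted p = 0.0560, limma). Wnt9a lost its call in every fit that left out 1 of its values and could still test it. Control day 5 replicate 2 did not list it, and without replicate 1 of that group it could not be tested. The metal-binding genes Mt2 and Mt1 had 1.34 and 0.96, and the chemokine gene Ccl2 had 0.84.

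Genes that moved with Cdk9-DN alone were fewer. Rgs16, an inhibitor of G protein signalling, had 12.4 and 12.8 FPKM in Cdk9-DN cells against 27.1 and 24.6 FPKM in control cells at day 10, and 31.4 and 31.0 FPKM against 25.5 and 23.4 FPKM at day 5. It fell with Cdk9-DN, had no called change in control cells, and had a difference of -1.32 ± 0.09 (SE, adjusted p = 5.78e-04, limma). Ier5l (-1.44) and Sncg, gamma-synuclein (-1.39), took the same course. Mfge8, a secreted phosphatidylserine-binding protein, fell with Cdk9-DN and rose in control cells, with 37.3 and 35.4 FPKM against 80.6 and 75.1 FPKM at day 10 and 41.5 and 43.3 FPKM against 40.6 and 37.8 FPKM at day 5 (difference -1.19, adjusted p = 1.75e-04, limma).

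In the other direction, the retinal dehydrogenase gene Aldh1a1 (1.27), the secreted ribonuclease gene Rnase1 (1.35) and the fatty acid binding protein gene Fabp7 (1.43) rose with Cdk9-DN with no called change in control cells. Aldh1a1 had 6.36 and 8.32 FPKM in Cdk9-DN cells against 2.53 and 3.63 FPKM in control cells at day 10, and 1.79 and 2.29 FPKM against 2.52 and 2.63 FPKM at day 5. These 3 calls depended on single libraries. Aldh1a1 lost its call without Cdk9-DN day 10 replicate 2, Cdk9-DN day 5 replicate 1 or control day 5 replicate 2 (highest adjusted p = 0.0554, limma). Rnase1 lost it without any 1 Cdk9-DN library or control day 5 replicate 1 (highest adjusted p = 0.0669, limma). Fabp7 lost it without any 1 library other than Cdk9-DN day 5 replicate 2 (highest adjusted p = 0.0996, limma).

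Among genes of pausing and elongation, 5 of 46 could be tested, and 3 were called positive and 1 negative (median 0.43). That is 80% called, beside 15.7% over all genes and 24.2% over protein-coding genes. Hexim1, whose protein inhibits P-TEFb, had 11.1 and 11.6 FPKM in Cdk9-DN cells against 14.7 and 12.3 FPKM in control cells at day 10, and 8.99 and 9.47 FPKM against 16.8 and 15.4 FPKM at day 5. Cdk9-DN cells were the lower group on both days, by 0.22 on the log2 scale at day 10 and by 0.74 at day 5. Neither single-day effect was called (adjusted p = 0.112 at day 10 and 0.0646 at day 5, limma). The difference was 0.52 ± 0.12 (SE, adjusted p = 0.0413, limma). Hexim1 was 1 of 33 genes called whose effect was at least as large at day 5 as at day 10. The call was lost without any 1 library other than control day 10 replicate 1 (adjusted p 0.0648 to 0.119, limma).

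Leo1, a subunit of the Paf1 elongation complex, had 0.54, Eaf1, a partner of the ELL elongation factors, 0.43, and Ell2, itself a subunit of the super elongation complex, -0.80. All 3 calls were lost in fits without 1 library. Leo1 was lost without Cdk9-DN day 10 replicate 2, control day 10 replicate 1, Cdk9-DN day 5 replicate 2 or either control day 5 library (highest adjusted p = 0.0806, limma). Eaf1 was lost without Cdk9-DN day 10 replicate 2, either control day 10 library, Cdk9-DN day 5 replicate 2 or control day 5 replicate 1 (highest adjusted p = 0.0777, limma). Ell2 was lost without any 1 library of day 5, Cdk9-DN day 10 replicate 2 or control day 10 replicate 2 (highest adjusted p = 0.106, limma). Larp7 was listed in 3 of the 8 libraries, none of them of day 10, and was not tested.

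Genes of other cell types that the cultures could hold were low, except globins. The 9 of 20 macrophage genes listed in all 8 libraries summed to 0.0659 to 0.128 FPKM in Cdk9-DN cells against 0.251 to 0.473 FPKM in control cells at day 10, and to 2.21 to 2.32 FPKM against 1.95 to 2.36 FPKM at day 5. The 4 of 18 endothelial genes summed to 1.37 to 1.42 FPKM against 4.38 to 4.67 FPKM at day 10, and to 0.364 to 0.447 FPKM against 0.606 to 0.611 FPKM at day 5; of these Cldn5, also a tight junction gene, was the 1 tested and was called (-1.08), a call lost with a pseudocount of 0.1 (adjusted p = 0.358, limma). The 7 of 20 muscle genes summed to 0.164 to 0.258 FPKM against 0.853 to 0.903 FPKM at day 10. At day 5 they summed to 0.0676 to 0.167 FPKM against 0.0574 to 1.06 FPKM. Their regulators Myf5, Myf6 and Myog were listed at 0 in all 8 libraries. The 11 of 27 endoderm and mesoderm genes summed to 2.91 to 3.39 FPKM against 2.62 to 3.21 FPKM at day 10. At day 5 their sums were 4.68 to 4.88 FPKM against 4.93 to 5.59 FPKM. The 9 of 14 globin and erythroid genes summed to 43.0 to 48.6 FPKM against 42.1 to 46.5 FPKM at day 10 and to 15.2 to 18.7 FPKM against 22.4 to 22.5 FPKM at day 5, and Hbb-y was not called (0.40, adjusted p = 0.280, limma). The part of other cell types in the differences was not tested. Of 7 interferon-induced genes tested, 0 were called (limma), and 1, Cxcl10, had an unadjusted p under 0.05.

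Of 184 small nucleolar RNA genes tested, 4 were called positive and 2 negative (3.26%, beside 15.7% over all genes), and of 38 microRNA genes 0 and 1 (2.63%). Eif2c2, here a short gene model under that symbol, was listed at 0 in 5 of the 8 libraries, at 32.0 and 31.7 FPKM in control cells at day 10 and at 26.4 FPKM in 1 Cdk9-DN library of day 5. Its call rests on zeros and was lost without any 1 library of day 10 or of control day 5 (highest adjusted p = 0.0906, limma). Of the 862 genes called, 125 held a 0 in at least 1 of the 8 libraries.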

How the data were processed

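The submitters' processing notes name CASAVA 1.8.2, TopHat2 2.0.10, Cufflinks 2.2.1 and the build mm9 for these RNA-seq libraries, per the labels with no further settings. The authors deposited FPKM values per gene and library, with no read counts, so a count test could not be used. Locus starts were shifted by 1 base to count from 1.

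Values were taken as log2(FPKM + 1), so changes of low genes are understated. A value that was not listed was treated as missing, not as 0. Genes needed 1 FPKM in at least 2 of 12 libraries (days 4, 5 and 10) and 2 residual degrees of freedom. limma 3.58.1 (R 4.3.3) fitted a mean for each of the 6 groups, with a variance trend, and p-values were adjusted by Benjamini-Hochberg over the 5485 genes, with calls at 0.05. The fit was tested on simulated data. Python 3.11.15 with pandas 2.3.3 read the files. Day 3 had 1 library per vector and was not used in the fit.

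Genes were named by rank (the 12 most positive and 12 most negative calls among genes listed in all 8 libraries, leaving out small RNAs, pseudogenes and unnamed gene models, with means of 5 FPKM or more in some group and with 1 sign in all 16 ways of taking 1 library per group), as up to 4 called members of each list, as up to 3 of each kind of course, and from a short list of markers. Members and lists were chosen with earlier results of these data known, and list members given outside that rule were chosen with their values seen. The alternatives were followed gene by gene only for genes named by the rule, so calls such as those of Jun, Ctgf and Cldn4 carry no such check. Gene types came from GENCODE M21, and promoters from RefSeq. The alternatives covered scaling, pseudocount, filters, libraries, a replicate block and leaving out each library. Some list members count in the list totals but are not reported here.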

Additional observations from a re-analysis of the deposited data

Results flagged for a closer look

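The comparison is itself a test of whether the Cdk9-DN effect differed between day 10 and day 5. The 862 genes were called for such a difference, and at an adjusted p under 0.05 some calls can be false. By rank among genes listed in all 8 libraries with 5 FPKM or more in some group, small RNAs, pseudogenes and unnamed models left out, the most positive were Nefl with 2.35, Insm1 with 2.01, Nr0b1 with 1.92, the casein gene Csn1s1 with 1.91, Lrr1 with 1.65, Ndn with 1.48, Megf9 with 1.46, Fabp7 with 1.43, Rnase1 with 1.35, Rrs1 with 1.29, Aldh1a1 with 1.27 and Dcn with 1.22 (log2 difference of effects). The most negative by the same rule were Eif2c2 with -7.43, Krt18 with -3.35, Spink3 with -2.51, Cldn9 with -2.40, Gcnt3 with -2.34, the apolipoprotein gene Apoc1 with -2.11, Dppa5a with -2.09, Gdf15 with -1.96, Dok5 with -1.92, Dusp5 with -1.90, Lypd5 with -1.85 and Psors1c2 with -1.85. The fitted value of Eif2c2 rests on libraries listed at 0 and depends on the pseudocount. Over the alternatives Spink3 reached -4.79, Apoc1 lost its call with a pseudocount of 0.1 (adjusted p = 0.119, limma), and Psors1c2 lost it with that pseudocount (adjusted p = 0.365, limma) and without any 1 library other than replicate 2 of either control group (highest adjusted p = 0.0627, limma).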

How the results depend on the processing

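Of 19 alternatives, 2 (zeros left out, robust moderation) were chosen after seeing the data. No named gene reversed, and 75 of 125 named genes kept their direction and side of the threshold in every alternative fitted for them. The count of 862 fell to 545 with a mean of at least 5 FPKM (201 lower) and to 469 for genes listed in all 8 libraries (263 higher, 206 lower); both test fewer genes. Leaving out 1 library gave 461 to 631 genes, 232 to 337 higher and 195 to 294 lower. Genes with called effects of opposite sign on the 2 days numbered 0 to 6 without 1 library, 1 with a pseudocount of 0.1, 2 with the 8 libraries alone and 1 with protein-coding genes alone, against 0; the cause was not tested. Quantile normalization gave 416 higher and 298 lower, median-of-ratios scaling 393 higher and 430 lower. Same-numbered libraries did not deviate together (r -0.154 to 0.0972 across 2098 genes), and a replicate block gave 695 genes. FPKM near or under 1 limits what day 5 can show.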
